A study of Mus musculus with 6 samples.

Results

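The 10 genes described here, Adipoq, Lep, Plin1, Plin4, Cidec, Fabp4, Pparg, Lpl, Lipe and Retn, were taken by name as genes of the fat cell, and they make up 10 of the 26814 genes in the count table. RNA-Seq was carried out on the top lip of 3 WT mice and 3 Gtf2ird1 KO mice, with 1 library per mouse and the whole dissected lip in each. The KO mice were homozygous for the Gtf2ird1tm1Hrd allele, the WT mice did not carry it, and both groups were untreated adult females of 2 to 6 months on a C57BL/6J background. The comparison addresses how the loss of GTF2IRD1, a DNA-binding transcription regulator, alters gene expression in the lip of these mice. The count of Gtf2ird1 was not lower but higher in the libraries labelled KO, 2.16-fold (log2 fold change 1.11, edgeR adjusted p = 0.0018). It lay at 78.2, 70.2 and 70.7 CPM (counts scaled to a common library size) in WT1, WT2 and WT3. In KO1, KO2 and KO3 it was at 166, 162 and 144 CPM. The paper states that the genotypes were checked again on tail biopsies. The part of the gene removed by the allele was not analysed here, so this count does not check the allele, and the animals are named below by their label. The library KO3 stood closer to the WT libraries than KO1 and KO2 did for the summed markers of muscle, endothelium, macrophages and fibroblasts, and results that rest on it are given with and without it.

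White adipocytes store triglyceride in a single large droplet, and PPARG is the nuclear receptor that drives both their formation and the expression of their lipid genes. Lipoprotein lipase frees fatty acids from circulating lipoproteins, FABP4 carries fatty acids inside the cell, perilipins and CIDEC coat and enlarge the droplet, and hormone-sensitive lipase, encoded by Lipe, hydrolyses stored diglyceride when fat is mobilised. Adiponectin and leptin are hormones released by fat cells, and resistin is a further secreted product of them in mice. In skin and lip, adipocytes lie beneath the dermis and between muscle fibres, and sebaceous glands, muscle fibres, capillaries and macrophages also use some of the same lipid genes.

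RefSeq promoter windows were at hand for 8 of the 10 genes, 12 windows in all, each running from 250 bases before to 50 bases after a start site. There was no entry for Fabp4 and Lpl. A stretch from base -200 to base -31 before the start (GRCm38.p6, RefSeq) is printed for 4 genes, Adipoq and Cidec because their levels moved together from library to library, Plin4 because it was lower in the mice labelled KO, and Lep because it holds a self-complementary C/EBP match. Capitals mark matches to the motifs named after the sequences. The stretches are Adipoq at chr16:23146336-23146505 (+ strand), Cidec at chr6:113435791-113435960 (- strand), Plin4 at chr17:56109813-56109982 (- strand) and Lep at chr6:29060021-29060190 (+ strand).
Adipoq: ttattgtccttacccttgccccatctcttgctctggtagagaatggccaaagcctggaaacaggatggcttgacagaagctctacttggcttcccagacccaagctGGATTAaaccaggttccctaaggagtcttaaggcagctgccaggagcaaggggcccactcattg
Cidec: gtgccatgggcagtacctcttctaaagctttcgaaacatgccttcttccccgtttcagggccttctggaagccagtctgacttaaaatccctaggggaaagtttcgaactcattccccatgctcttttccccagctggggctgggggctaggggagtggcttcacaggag
Plin4: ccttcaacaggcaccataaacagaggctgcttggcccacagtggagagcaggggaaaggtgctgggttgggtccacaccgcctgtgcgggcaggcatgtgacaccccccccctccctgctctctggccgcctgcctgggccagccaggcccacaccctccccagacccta
Lep: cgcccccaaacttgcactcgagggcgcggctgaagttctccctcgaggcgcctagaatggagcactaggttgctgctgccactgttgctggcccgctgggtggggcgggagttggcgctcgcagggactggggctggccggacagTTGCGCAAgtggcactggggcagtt

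The letters searched, on both strands, were GGATTA, the core of sites described for GTF2IRD1, AGGTCA, the half-site of nuclear receptors, AGGTCANAGGTCA, the direct repeat bound by PPARG with RXR, TTGCNNAA for C/EBP proteins, and TATAAA, the TATA box. The GTF2IRD1 core was found in the windows of Adipoq, at -94 to -89, and Lep, at -221 to -216, and 7.06% of all 32851 RefSeq windows of that length held it. TTGCNNAA was found for Cidec, Lep, Plin1 and Pparg against 10.8% of all windows, and in Lep it lay at -55 to -48, where it reads the same on both strands. The half-site was found only for Pparg, against 16.3% of all windows, and the direct repeat for no member, against 0.0396%. The TATA box was found for Pparg, against 13.6% of all windows. The printed stretches of Cidec and Plin4 held none of these letters, and Cidec had its match in the window of a second start site. These matches are descriptions of sequence and not measured binding sites.

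All 10 genes were detected in each library and passed the filter of at least 1 CPM in at least 3 libraries, so that no member was lost. Compared per kilobase of the principal transcript, which sets genes of different length on one scale, Fabp4 had the highest level in WT at 71.7 CPM per kb, followed by Lpl at 34.1 and Plin4 at 16.5 CPM per kb. Lipe at 9.74, Pparg at 7.39, Adipoq at 5.71, Cidec at 4.30, Plin1 at 2.18, Retn at 1.85 and Lep at 0.438 CPM per kb followed. In the 3 WT libraries the ranges of Fabp4, Lpl and Plin4 were separate from each other and from Lipe, the ranges of each neighbouring pair from Lipe down to Retn overlapped, and Lep lay below Retn. In the mice labelled KO, Fabp4 at 45.8 and Lpl at 25.3 CPM per kb were again first, whereas Lipe at 10 stood above Plin4 at 8.02 CPM per kb with overlapping ranges. The leptin and resistin genes were thus the least abundant in WT on this scale. Lep was counted 12 to 47 times per library, and the 3 counts that bound a zero correspond to 0.0986 to 0.154 CPM.

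Plin4 and Fabp4 were lower in the mice labelled KO, and no member was higher. Among all 15009 tested genes, 314 (2.09%) were called lower and 657 (4.38%) higher by edgeR at an adjusted p under 0.05. The other 8 genes did not pass the test, although the fold change was negative for 9 of the 10 genes, against 52.0% of all tested genes, and 5 of the 10 had an unadjusted p under 0.05, against 29.6% of all tested genes. The 3 values labelled KO lay below the 3 WT values for Plin4, Cidec, Fabp4 and Lpl, which is 4 of 10 genes against 18.1% of all tested genes. The median log2 fold change of the 10 genes was -0.60, beside -0.02 for all tested genes. A negative median was not particular to them. It was -0.95 for skeletal muscle markers, -0.62 for hair follicle, -0.56 for dermal fibroblast, -0.52 for sebaceous gland and -0.51 for endothelial markers. For macrophage markers it was -0.22, for basal keratinocyte markers -0.04 and for suprabasal keratinocyte markers 0.64. Other tools called more of all tested genes lower, 1073 with edgeR's exact test, 1142 with DESeq2 and 332 with limma-voom. Counts from these tools below are to be read beside those numbers. The fit without KO3 called 2395 of all tested genes lower, and its counts below are to be read beside that number. For all fits with 1 library left out, the range over all tested genes is given at the end. Summed over the 10 genes, the level ranged from 342 to 393 CPM in WT and from 245 to 261 CPM in the mice labelled KO, a sum that Lpl, Plin4 and Fabp4 dominate. In bulk tissue, fewer adipocytes, less RNA per adipocyte and a change in other cells that use these genes cannot be told apart.

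**Figure D1:**
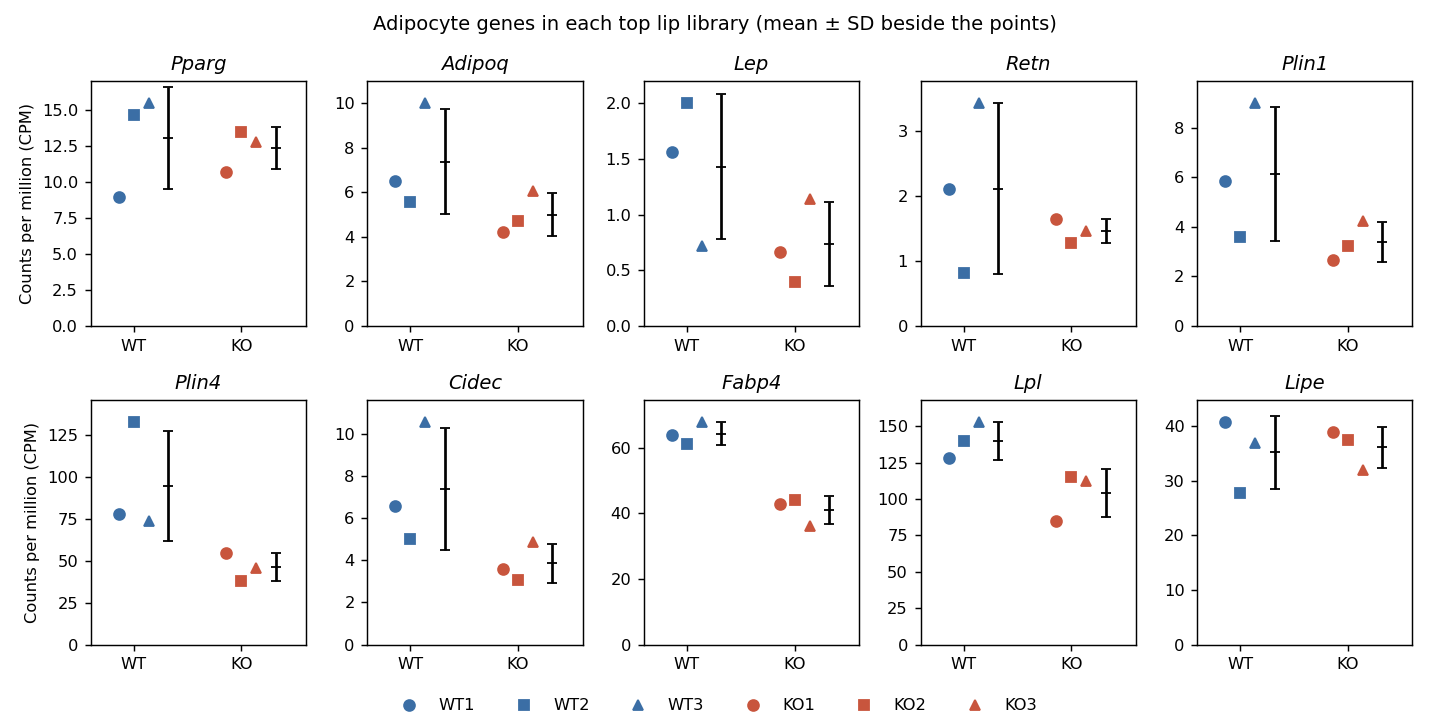
Level of each of the 10 adipocyte genes in CPM (vertical axes from 0, one scale per gene) in the 3 WT (blue) and 3 labelled KO (red) libraries, with the mean and SD drawn beside the points. Fabp4, Plin4, Lpl and Cidec have every red point below every blue point, while the groups overlap for the other 6 genes.

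Pparg, the gene of the adipogenic nuclear receptor (chr6:115360951-115490399, + strand), showed no detectable difference. Its level was 9.00, 14.7 and 15.5 CPM in WT1, WT2 and WT3, and 10.7, 13.5 and 12.8 CPM in KO1, KO2 and KO3. The groups overlapped fully, with all 3 values labelled KO inside the WT range. The log2 fold change was -0.07 with a 95% interval from -0.60 to 0.45 (edgeR adjusted p = 0.849). With 3 mice per group, changes inside that interval are not excluded, and the interval is not a limit of detection. Of 17 other adipogenic transcription factors tested, 0 passed the test in either direction by edgeR's quasi-likelihood test, with a median log2 fold change of -0.32 and 7 of them at an unadjusted p under 0.05. The exact test called 1 of them lower, DESeq2 2, limma-voom 0, and the fit without KO3 6. Cebpa, the C/EBP factor that works with PPARG late in adipogenesis, had mean levels of 255 CPM in WT and 252 CPM in the mice labelled KO, and Rxra, which encodes the heterodimer partner of PPARG, 335 and 314 CPM.

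Adipoq, which encodes adiponectin (chr16:23146536-23158028, + strand), was at 6.53, 5.57 and 10 CPM in the WT libraries and at 4.2, 4.73 and 6.08 CPM in KO1, KO2 and KO3. WT3 was the highest of the 6, and KO3 lay above WT2, so that the groups overlapped. The log2 fold change was -0.56 (SE 0.27, interval -1.17 to 0.05, edgeR adjusted p = 0.198). Lep, the leptin gene (chr6:29060220-29073877, + strand), was at 1.56, 2.0 and 0.72 CPM in WT1, WT2 and WT3 and at 0.665, 0.395 and 1.14 CPM in KO1, KO2 and KO3. It was low in WT3, the library in which Adipoq was highest, and WT3 lay below KO3. The log2 fold change of Lep was -0.99 with a wide interval from -2.12 to 0.13 (edgeR adjusted p = 0.209), and the gene passed the filter through exactly 3 libraries. Retn, the resistin gene (chr8:3655770-3660110, + strand), was at 2.1, 0.808 and 3.42 CPM in the WT libraries and at 1.64, 1.28 and 1.46 CPM in those labelled KO. The WT values enclosed the others, and the log2 fold change of -0.53 had an interval from -1.59 to 0.52 (edgeR adjusted p = 0.457).

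Retnla, a relative of resistin that alternatively activated macrophages and adipose tissue are known to make, fell. It was at 71.8, 52.5 and 47.0 CPM in the WT libraries and at 32.3, 34.6 and 31 CPM in KO1, KO2 and KO3, with no overlap. The level was 42.9% lower (log2 fold change -0.81, SE 0.18, edgeR adjusted p = 0.0379), and of the 6 fits that each left out a library it kept the call only without KO3. Retnlb and Retnlg were too low to be tested. Among 13 other adipokine and receptor genes, 0 passed by edgeR's quasi-likelihood test and 3 had an unadjusted p under 0.05, with a median log2 fold change of -0.24. The exact test called 2 of them lower, DESeq2 1, limma-voom 0, and the fit without KO3 5. The receptors for adiponectin, Adipor1 at 258 CPM in WT and 257 CPM in the mice labelled KO and Adipor2 at 226 and 219 CPM, were at nearly the same mean level in both groups.

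Plin4, Cidec and Plin1, which encode proteins of the droplet surface, had with Lep the most negative fold changes of the 10 genes. Plin4 encodes perilipin 4, which coats small nascent droplets and is known from adipocytes and from striated muscle (chr17:56100591-56109803, - strand). It was at 78.2, 133 and 73.5 CPM in WT1, WT2 and WT3 and at 54.9, 38.1 and 45.6 CPM in KO1, KO2 and KO3. Every value labelled KO lay below every WT value, and WT2 stood well above the other WT libraries. Plin4 was 51.3% lower (log2 fold change -1.04, SE 0.25, interval -1.61 to -0.46, edgeR adjusted p = 0.0496), which is just past the threshold. It kept the call in 4 of 11 other analyses, with adjusted p between 0.00109 and 0.0739, and without WT2 its log2 fold change was -0.66 (adjusted p = 0.0888). The exons of Plin4 overlap those of Hdgfl2 on the opposite strand, and the strand setting of the counting is not given in the sources used here, so the reads of these genes may not have been told apart. Hdgfl2, listed as Hdgfrp2, was at 38.9, 39.2 and 39.6 CPM in WT and at 32.0, 33.4 and 38.4 CPM in the mice labelled KO (log2 fold change -0.18, edgeR adjusted p = 0.374).

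Plin1 encodes perilipin 1, the main coat protein of the large adipocyte droplet and a gate for lipolysis (chr7:79720218-79732903, - strand). It was at 5.84, 3.61 and 8.99 CPM in the WT libraries and at 2.66, 3.22 and 4.25 CPM in KO1, KO2 and KO3. KO3 lay above WT2, the lowest WT library, and WT3 was the highest. The log2 fold change was -0.86 (SE 0.34, interval -1.65 to -0.07, edgeR adjusted p = 0.143), and without KO3 it was -1.05 and passed the test (adjusted p = 0.0460). Cidec encodes a protein that fuses small droplets into a large one (chr6:113424634-113435760, - strand). It was at 6.57, 5.02 and 10.6 CPM in WT1, WT2 and WT3 and at 3.58, 3.09 and 4.89 CPM in KO1, KO2 and KO3. The groups did not overlap, but KO3 and WT2 were close, and the log2 fold change of -0.94 (SE 0.31, interval -1.66 to -0.22) did not pass the test (edgeR adjusted p = 0.0995). It passed with edgeR's exact test (adjusted p = 0.0325), with DESeq2 (adjusted p = 0.0448) and without KO3 (adjusted p = 0.0218).

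Of 12 other droplet coat and CIDE genes tested, only Plin5 passed edgeR's quasi-likelihood test, and it was lower. An unadjusted p under 0.05 was reached by 4 of the 12. Plin5, which ties droplets to mitochondria in oxidative tissues such as heart and skeletal muscle, lies next to Plin4 on the same strand (chr17:56111601-56117596). Its level was 8.20, 5.06 and 5.67 CPM in the WT libraries and 2.05, 1.81 and 2.56 CPM in KO1, KO2 and KO3, 66.2% lower with no overlap (log2 fold change -1.57, SE 0.26, edgeR adjusted p = 0.0121). Plin5 passed in all 11 other analyses and in 3 of the 6 fits with a library left out (without WT2, WT3 or KO3). Plin2, the perilipin found on droplets of most cell types, had mean levels of 176 CPM in WT and 191 CPM in the mice labelled KO (log2 fold change 0.12, edgeR adjusted p = 0.777). The interval of Plin2 ran from -0.46 to 0.70, and its estimate ranged from -0.14 to 0.36 with 1 library left out. Cidea, a CIDE gene used by brown fat and sebaceous glands, was at 96.0 CPM in WT and 69.0 CPM in the mice labelled KO. It did not pass the test except in the fit without KO3 (edgeR adjusted p = 0.0114).

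**Figure D2:**
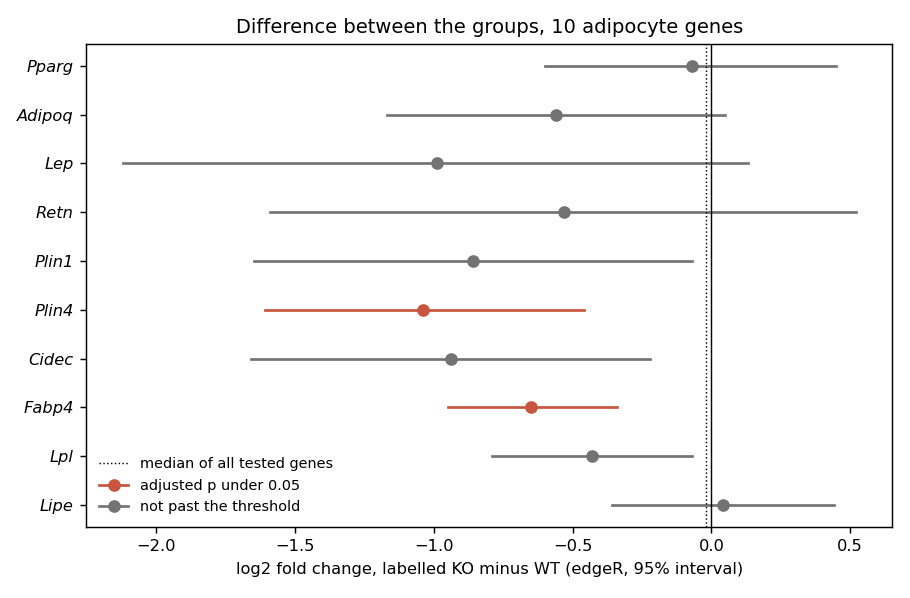
Fold change of each gene on the log2 scale, libraries labelled KO minus WT (horizontal axis), with 95% intervals from the edgeR fit. The intervals of Plin4 and Fabp4, in red, are those with an adjusted p under 0.05, Plin1, Cidec and Lpl have intervals below 0 without passing after adjustment, and Pparg and Lipe are centred near the median of all tested genes (dotted line at -0.02).

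Fabp4 gave the most precise decrease of the 10 genes. It encodes the adipocyte fatty acid binding protein, which capillary endothelium and macrophages are also known to express (chr3:10204088-10208576, - strand). The level was 63.8, 61.1 and 67.9 CPM in WT1, WT2 and WT3 and 42.9, 44.0 and 36.2 CPM in KO1, KO2 and KO3. Spread within either group was small beside the gap between them, at 64.3 ± 3.41 CPM (SD, n = 3) against 41.0 ± 4.23 CPM (SD, n = 3). Fabp4 was 36.2% lower (log2 fold change -0.65, SE 0.13, interval -0.95 to -0.34, edgeR adjusted p = 0.0303). The call held in 9 of 11 other analyses, with adjusted p between 0.000974 and 0.0604. With 1 library left out it held only without KO3, although the log2 fold change stayed between -0.66 and -0.56 in all 6 such fits.

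Lpl encodes lipoprotein lipase, which is made by adipocytes and muscle and works on the capillary wall (chr8:68880491-68907448, + strand). It was at 128, 140 and 153 CPM in the WT libraries and at 85.0, 115 and 112 CPM in KO1, KO2 and KO3. The groups did not overlap, and KO1 was the lowest. The log2 fold change of -0.43 (SE 0.16, interval -0.79 to -0.07) did not pass the test (edgeR adjusted p = 0.119). Cd36, a fatty acid transporter of adipocytes, muscle and capillaries, had mean levels of 113 CPM in WT and 102 CPM in the mice labelled KO, and Slc27a1, the transporter of muscle and fat, 96.6 and 73.6 CPM, neither passing the test.

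Among 11 other genes of fatty acid uptake and binding, Fabp3 was called lower and Fabp5 higher, so the relatives of Fabp4 went in opposite directions. Fabp3, the fatty acid binding protein of heart and skeletal muscle, was at 35.2, 26.1 and 24.8 CPM in WT and at 12.9, 11.8 and 14.6 CPM in KO1, KO2 and KO3 (54.3% lower, log2 fold change -1.13, SE 0.18, edgeR adjusted p = 0.0113). The exons of Fabp3 overlap those of Zcchc17 and Gm10570 on the opposite strand. Fabp5, known as the epidermal fatty acid binding protein, lies on the same chromosome as Fabp4 (chr3:10012548-10016607, + strand) and was at 1090, 817 and 836 CPM in WT and at 2640, 1950 and 1990 CPM in KO1, KO2 and KO3. It was 2.40-fold higher (log2 fold change 1.26, SE 0.21, edgeR adjusted p = 0.0116). With 1 library left out, Fabp3 lost the call without KO1 or KO2, and Fabp5 without WT3. All 3 genes had separate groups, with Fabp3 and Fabp4 below and Fabp5 above the WT values in each library labelled KO.

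**Figure D3:**
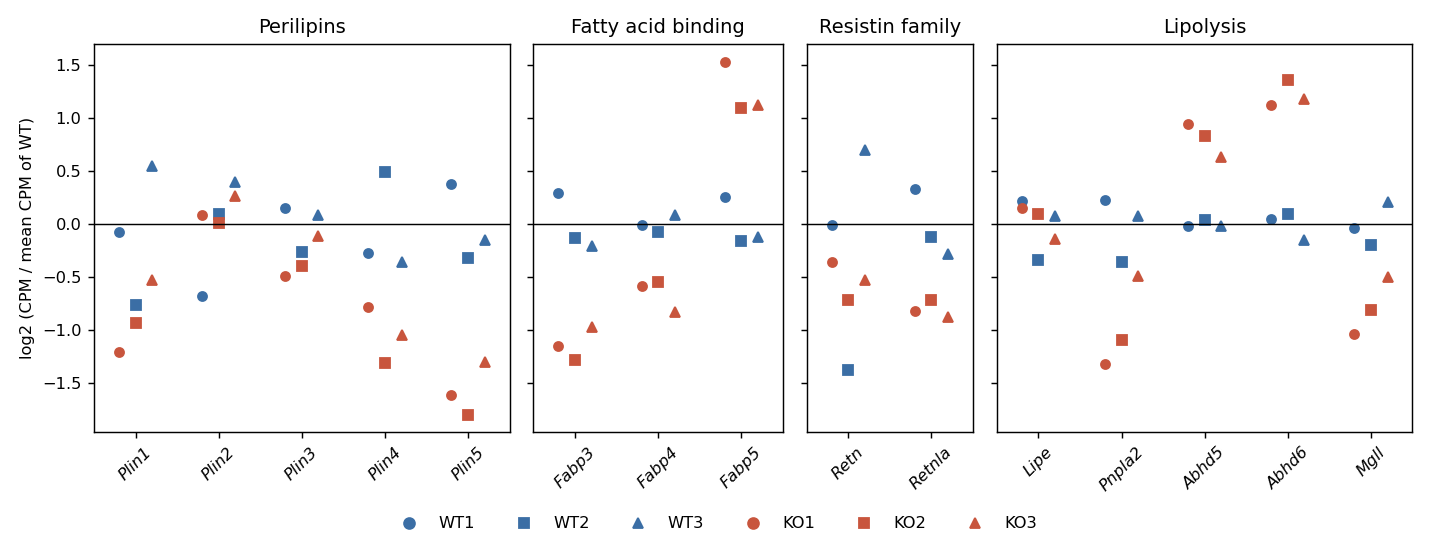
Level of member genes and their relatives in each library as log2 of CPM over the WT mean (vertical axis, 0 is the WT mean), grouped by family. Plin4, Plin5, Fabp3, Fabp4 and Retnla lie below WT in the 3 red libraries, Fabp5, Abhd5 and Abhd6 lie above, and Lipe, Plin2 and Retn are mixed with WT.

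Lipe, the gene of hormone-sensitive lipase (chr7:25379527-25398710, - strand), showed no detectable difference. It was at 40.8, 27.8 and 37.0 CPM in WT1, WT2 and WT3 and at 39.0, 37.5 and 31.9 CPM in KO1, KO2 and KO3. All values labelled KO lay within the WT range, and the log2 fold change was 0.04 with an interval from -0.36 to 0.44 (edgeR adjusted p = 0.9). The sign of this estimate turned with upper-quartile normalization and without WT2. An opposite-strand transcript, 4732471J01Rik, overlaps Lipe but was counted at most 5 times in a library.

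Of 9 other lipolysis genes tested, 2 were called higher and 0 lower by edgeR's quasi-likelihood test, and 6 had an unadjusted p under 0.05. Lower calls appeared with other tools, 2 genes with edgeR's exact test, 2 with DESeq2 and 1 with limma-voom, and 3 genes were called lower without KO3. Abhd5 encodes the activator of adipose triglyceride lipase that perilipin 1 holds back, and it also serves the lipid barrier of the epidermis. It was at 84.4, 87.8 and 84.0 CPM in WT and at 164, 152 and 132 CPM in KO1, KO2 and KO3, 1.75-fold higher (log2 fold change 0.81, SE 0.13, edgeR adjusted p = 0.0110), and lost the call without WT1, WT3 or KO2. Abhd6, a monoacylglycerol hydrolase, was at 23.7, 24.4 and 20.6 CPM in WT and at 49.7, 58.9 and 51.8 CPM in the mice labelled KO, 2.33-fold higher (log2 fold change 1.22, SE 0.14, edgeR adjusted p = 0.00186), and it kept the call in all 6 fits with a library left out. Pnpla2, which encodes adipose triglyceride lipase itself, had mean levels of 158 CPM in WT and 82.9 CPM in the mice labelled KO with no overlap and missed the threshold (log2 fold change -0.93, edgeR adjusted p = 0.0609). Mgll, the monoglyceride lipase that ends the pathway, was at 1210 and 710 CPM and also missed it (log2 fold change -0.77, edgeR adjusted p = 0.0571). Mgll was called in 5 of 11 other analyses, with adjusted p between 0.0042 and 0.0683, and Pnpla2 in 2 of 11, with adjusted p between 0.00493 and 0.0726. Both also passed without KO3 (adjusted p = 0.00819 and 0.00241).

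Ratios within a library, which no scaling of libraries can move, were used to ask whether the member genes kept their proportion to Plin1. For each of the 9 genes the groups of ratios overlapped, and with 3 mice against 3 the exact permutation test cannot give a p below 0.1. Lipe had the largest difference: it was 6.98, 7.68 and 4.11 times the CPM of Plin1 in WT and 14.7, 11.6 and 7.51 times in KO1, KO2 and KO3 (difference of log2 ratios 0.85, two-sided exact permutation p = 0.2, adjusted over the 9 genes 0.675). Pparg followed with a difference of 0.75 (exact permutation p = 0.3, adjusted 0.675). Adipoq was 1.12, 1.54 and 1.11 times Plin1 in WT and 1.58, 1.47 and 1.43 times in the mice labelled KO, and Cidec 1.12, 1.39 and 1.18 times against 1.35, 0.959 and 1.15 times. No difference in proportion to Plin1 was therefore shown at this sample size. Set against Adipoq instead, Cidec was at 1.01, 0.901 and 1.06 times its CPM in WT and at 0.854, 0.653 and 0.805 times in KO1, KO2 and KO3, with no overlap (difference of log2 ratios -0.37, exact permutation p = 0.1, which is the lowest value possible with 3 mice against 3, adjusted over the 9 ratios to Adipoq 0.675). The other 8 ratios to Adipoq overlapped.

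From library to library, Adipoq, Plin1 and Cidec moved closely together, with Pearson r of log2 CPM of 0.98 for Adipoq with Plin1, 0.96 for Adipoq with Cidec and 0.95 for Plin1 with Cidec over the 6 libraries. These points share library and group, and the values are a description only. For Lep, r was 0.79 with Plin4 and 0.19 with Adipoq, and for Lipe with Pparg it was -0.60.

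The tested genes outside the list whose profile was most like the mean standardized log2 CPM of the 10 genes were Omp (r = 0.999), Dok4 (r = 0.996), Ly6g6d (r = 0.995), Flrt1 (r = 0.994), S100a3 (r = 0.993), Cadm4, Sh3rf3 and Adc (r = 0.989 each), and Crhr1 and Ptdss2 (r = 0.987 each), over 6 libraries. With so few libraries, 681 of 10623 candidate genes reached r over 0.9, so the order within this list carries little weight. Of these 10 genes, Ly6g6d and Flrt1 were called lower. The mean profile itself ran from 0.13 to 1.0 in WT and from -0.64 to -0.31 in the libraries labelled KO. Genes picked by likeness to it were therefore lower in KO by selection, and these calls are not a separate result.

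In the wider adipocyte program, 116 of 132 listed genes were tested, of which 7 were called lower and 4 higher, with a median log2 fold change of -0.38. Of all tested genes, 2.09% were called lower and 4.38% higher. Among 15 tested genes listed as otherwise enriched in adipocytes, 14 had a negative fold change and 9 an unadjusted p under 0.05. Their median was -0.63, and 1 was called lower. Triglyceride synthesis held 9 tested genes, of which 0 passed by edgeR's quasi-likelihood test and 4 had an unadjusted p under 0.05, with a median of -0.45. Lower calls numbered 3 with the exact test, 1 with DESeq2, 0 with limma-voom and 4 without KO3. Dgat2, which completes triglyceride synthesis, was at 304 CPM in WT and 273 CPM in the mice labelled KO, and Lpin1, a phosphatidate phosphatase of adipocytes and muscle, at 72.8 and 44.7 CPM, neither passing the test. Of 12 genes of fatty acid synthesis and glucose supply, Acacb was called lower. Acacb makes the malonyl-CoA that restrains fatty acid oxidation, most of all in muscle and heart, and it was at 264, 228 and 243 CPM in WT and at 89.8, 124 and 168 CPM in KO1, KO2 and KO3 (48.0% lower, log2 fold change -0.94, SE 0.22, edgeR adjusted p = 0.0453). Scd1 and Fasn, the abundant lipogenic genes of sebaceous gland and fat, were at 3700 and 641 CPM in WT and at 2780 and 495 CPM in the mice labelled KO, with overlapping groups and no call.

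Of 9 brown adipocyte markers tested, Cox7a1 was called lower and Dio2 higher. The fold change was negative for 7 of the 9 and positive for 2, with a median log2 fold change of -0.61. An unadjusted p under 0.05 was reached by 7 of them in the edgeR test. Cox7a1, a cytochrome oxidase subunit of brown fat, heart and skeletal muscle, was at 88.4, 52.8 and 82.7 CPM in WT and at 21.6, 28.7 and 43.5 CPM in KO1, KO2 and KO3 (log2 fold change -1.25, SE 0.29, edgeR adjusted p = 0.0433). Dio2, the deiodinase that activates thyroid hormone in brown fat and other tissues, was at 10.3, 10.4 and 12.1 CPM in WT and at 60.5, 57.6 and 35.8 CPM in the mice labelled KO, 4.68-fold higher (log2 fold change 2.23, SE 0.22, edgeR adjusted p = 0.000893). Dio2 kept the call in all 6 fits with a library left out. Its exons, like those of Abhd5, overlap a transcript on the opposite strand. Ucp1, which defines brown and beige fat cells, was below the filter.

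Of 10 adipocyte precursor markers, F3 alone passed the test. F3 encodes tissue factor, which marks a subset of adipose stromal cells and is also present in epidermis, and it was at 54.5, 55.5 and 51.9 CPM in WT and at 19.1, 18.9 and 18.8 CPM in KO1, KO2 and KO3 (65.0% lower, log2 fold change -1.51, SE 0.12, edgeR adjusted p = 0.000252). Pi16 and Cd34, which mark early stromal progenitors, were at 484 and 204 CPM in WT and at 294 and 125 CPM in the mice labelled KO without passing. Without 1 library, the calls of Acacb and Cox7a1 were each kept only in the fit without KO3.

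The levels of markers of other cell types are given beside the adipocyte genes. The white adipocyte markers, 9 genes of which 6 are members, were all detected, with 0 called by edgeR's quasi-likelihood test (2 lower with the exact test, 2 with DESeq2, 0 with limma-voom and 4 without KO3), 5 at an unadjusted p under 0.05 and 8 with a negative fold change, and their summed level ranged from 85.5 to 141 CPM in WT and from 77.1 to 86.4 CPM in the mice labelled KO, so that the ranges overlapped. Cfd, the adipsin gene and the most abundant of the markers outside the members, followed Adipoq with 26.2, 18.2 and 47.2 CPM in WT and 14.0, 13.9 and 21.3 CPM in KO1, KO2 and KO3. Adipocyte markers were thus present in every library at a low level, and Plin4, Fabp4, Lpl and Lipe, the most abundant members per length, are also used by other cells of the lip.

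Skeletal muscle markers summed to 8500 to 11100 CPM in WT and 3690 to 7210 CPM in the mice labelled KO, with all 10 fold changes negative. All 10 had an unadjusted p under 0.05 in the edgeR test. Tnnt3 and Pvalb were called lower by edgeR's quasi-likelihood test, and with 1 library left out both kept the call only without KO3. The exact test called 8 of the 10 lower, DESeq2 7, limma-voom 3, and the fit without KO3 9. KO3, at 7210 CPM, was nearest to WT. This difference stood beside those of Plin4, Plin5, Fabp3, Lpl, Acacb and Cox7a1, which muscle fibres are known to express, and its part in them was not tested. Endothelial markers summed to 215 to 262 CPM in WT and 144, 156 and 234 CPM in KO1, KO2 and KO3, and macrophage markers to 613 to 657 CPM in WT and 433, 437 and 626 CPM, with 0 genes of either list called by edgeR's quasi-likelihood test and 6 and 2 genes at an unadjusted p under 0.05. Of the endothelial markers, 3 were called lower with the exact test, 3 with DESeq2, 0 with limma-voom and 7 without KO3, and of the macrophage markers 0 with each tool and 5 without KO3. Over all tested genes, the exact test called 1073 lower, DESeq2 1142 and the fit without KO3 2395, against 314 in the main fit. Fabp4, which endothelium and macrophages express, was at 42.9, 44.0 and 36.2 CPM in KO1, KO2 and KO3. The sums of both lists lay inside the WT range in KO3 and below it in KO1 and KO2. Their part in the level of Fabp4 was not tested.

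Sebaceous gland markers summed to 1590 to 1880 CPM in WT and 1350 to 1480 CPM in the mice labelled KO, with Awat1 called lower and Scd3 higher. Dermal fibroblast markers ranged from 6970 to 8980 CPM and from 3050 to 7250 CPM, with 0 of 10 genes called by edgeR's quasi-likelihood test (2 lower with the exact test, 1 with DESeq2, 0 with limma-voom and 6 without KO3) and 3 at an unadjusted p under 0.05, and hair follicle markers from 8450 to 10800 CPM and from 5530 to 7250 CPM, with Hoxc13 called lower. Basal keratinocyte markers overlapped, at 10800 to 11800 CPM and 10200 to 12100 CPM, with 0 of 7 genes called by edgeR's quasi-likelihood test, 2 at an unadjusted p under 0.05, and 1 called higher with DESeq2 and 0 with the exact test or limma-voom. Suprabasal keratinocyte markers were the one marker list with separate ranges in the other direction, at 19300 to 23900 CPM in WT and 30200 to 46000 CPM in the mice labelled KO, with Ivl called higher. Ivl and Hoxc13 kept their calls with 1 library left out only without KO3, with adjusted p up to 0.117 and 0.154 in the other fits. Krt1 and Krt10, the most abundant suprabasal markers, had higher values in every mouse labelled KO and did not pass edgeR's quasi-likelihood test (adjusted p = 0.0584 and 0.163). Krt1 was called in 7 of 11 other analyses, with adjusted p between 1.69e-06 and 0.0739, and Krt10 in 2 of 11, between 0.00751 and 0.201. Of the 7 suprabasal markers, 4 had an unadjusted p under 0.05. The exact test called 4 of them higher, DESeq2 4, limma-voom 2, and the fit without KO3 4. CPM values are shares of a library, and the higher suprabasal sums stood beside the lower Plin4 and Fabp4 as well as beside the higher Fabp5, Abhd5 and Dio2. Their part in these differences was not tested.

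**Figure D4:**
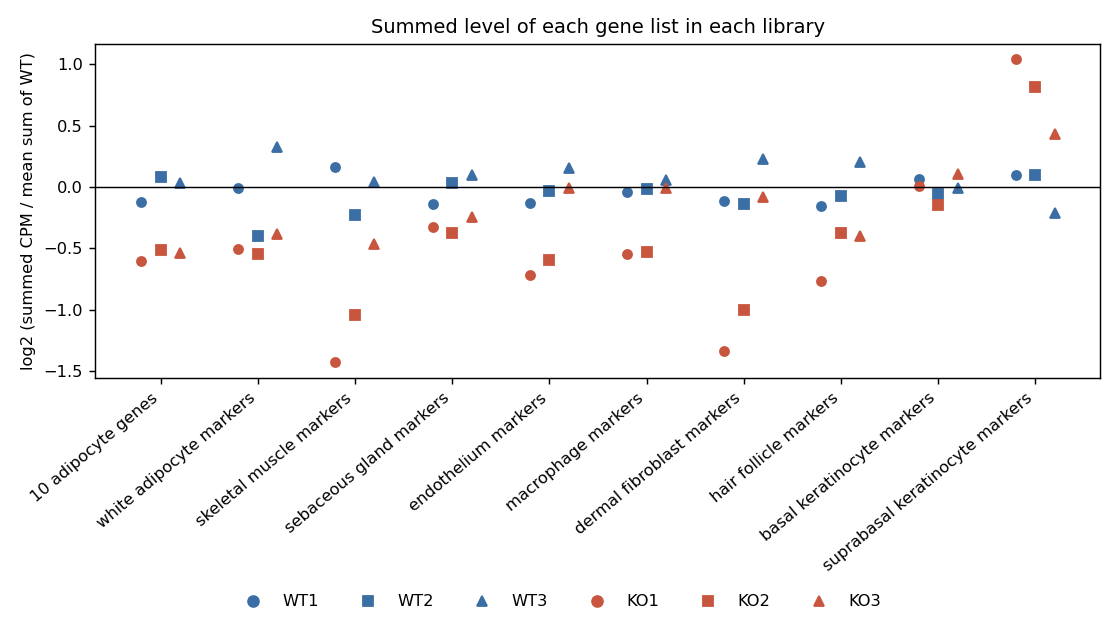
Summed CPM of the 10 adipocyte genes and of each marker list in every library, as log2 of the sum over the mean sum of WT (vertical axis, 0 is the WT mean). The red points of the adipocyte genes lie together below WT, those of muscle and fibroblast markers are spread with KO3 (triangle) nearest to WT, and those of suprabasal keratinocyte markers lie above.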

How the data were processed

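RNA-Seq libraries from the top lip of 3 WT and 3 KO mice were analysed. Paired-end reads were aligned by the authors with TopHat2 2.0.8 and Bowtie2 2.1.0 (GRCm38), and the deposited values are raw counts of uniquely mapped reads per gene from HTSeq-count. The strand setting and counting mode are not given in the sources used here. Library totals ranged from 20164081 to 29491767 counts. No column belonged to another sample.

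The 15009 genes that reached 1 CPM in 3 or more libraries, with 99.8% of the counts, were tested with edgeR 4.0.16 in R 4.3.3 by the quasi-likelihood test (legacy=FALSE) after TMM scaling, with Benjamini-Hochberg adjustment over all tested genes and a threshold of 0.05. CPM values use TMM-scaled library sizes and log2 CPM a prior count of 2. Intervals are 95% intervals of the fit, limits for low counts cover counting error only, and p-values measure the spread between these mice. Ratios to Plin1 were compared by a two-sided exact permutation test. Alternatives, 12 besides the left-out libraries, used DESeq2 1.42.0, limma 3.58.1 (voom), other scalings, filters and an adjusted p under 0.1. The script was tested on simulated data. Figures were drawn with matplotlib 3.10.9 in Python 3.11.15. Positions and transcript lengths come from GENCODE vM21 (GRCm38), where 24804 of the symbols were found, and promoters from RefSeq.

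The members and lists were chosen with earlier results of these data known. Named were all 10 members, genes of a role list past the threshold and up to 4 others per list by mean CPM, Gtf2ird1, up to 3 markers per cell type, and the 10 genes most correlated with the members. One called gene of the role lists is included in the counts and is not reported here by itself.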

Additional observations from a re-analysis of the deposited data

How the results depend on the processing

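No member was called higher under any setting. Of the 10 members, 2 were called lower, and this count was 0 with the replicate block, 1 with no filter, at least 10 counts in every library, library size alone, DESeq2 size factors, limma-voom, robust empirical Bayes or edgeR's older quasi-likelihood fit, and 3 with edgeR's exact test, DESeq2 or an adjusted p under 0.1. It ranged from 0 to 4 over the fits that each left out 1 library: it was 4 without KO3 and 0 without any other library. The median log2 fold change of the members lay between -0.66 and -0.43 in all fits. The role-list genes called lower, 7 in all, were 4 with no filter, 25 with edgeR's exact test, 23 with DESeq2, 24 at an adjusted p under 0.1 and 1 to 49 without 1 library. The 4 called higher were 7 with DESeq2 and 2 to 9 without 1 library. Of all tested genes, 314 were called lower and 657 higher.

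The number called lower over all tested genes was 207 with DESeq2 size factors, 204 with no filter, 204 with at least 10 counts in every library, 1073 with the exact test, 1142 with DESeq2, 1281 at an adjusted p under 0.1 and 18 to 2395 without 1 library. The number called higher was 1165, 1426, 1248 and 208 to 2496 for the last 4 of these. Reversed estimates, none past the threshold, were those of Pparg at 0.08 without WT2, 0.06 without WT3 and 0.08 without KO1, and of Lipe at -0.02 with upper-quartile normalization and -0.05 without WT2. Over all 6 left-out fits Pparg ranged from -0.29 to 0.08 and Lipe from -0.05 to 0.15. The cause of these changes was not tested. The sources used here do not state whether same-numbered mice were paired. The deviations of same-numbered libraries from their group means correlated at -0.192, 0.293 and 0.312. With 3 libraries per group these values cannot decide the question. The main fit used no pairing, and the fit with the replicate block called 580 genes higher and 217 lower. Low counts limit Lep, which only 3 of 6 fits with a library left out could test.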

Other observations

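The members differed in which WT library was highest, a grouping made after the values were seen. Adipoq, Plin1, Cidec, Retn and Fabp4, and with them Cfd and Angptl4, named here for that reason, were highest in WT3 and lowest in WT2, whereas Plin4 and Lep were highest in WT2, Lpl and Pparg were highest in WT3 and lowest in WT1, and Lipe was highest in WT1. Angptl4, a fasting-induced inhibitor of lipoprotein lipase, was at 20.5, 8.16 and 28.9 CPM in WT1, WT2 and WT3 and at 6.14, 5.36 and 12.9 CPM in KO1, KO2 and KO3.

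Ucp1, the uncoupling protein of brown and beige adipocytes, was chosen after its values were seen. It was counted 12, 7 and 6 times in WT1, WT2 and WT3 and 27, 39 and 16 times in KO1, KO2 and KO3, which is 0.436, 0.298 and 0.27 CPM against 1.38, 1.28 and 0.732 CPM. The groups did not overlap, the gene was below the filter, and in the fit with no filter the log2 fold change was 1.77 (SE 0.39, edgeR adjusted p = 0.0285). Dio2 was higher in the same libraries, while Cox7a1 was lower, and Cox8b, at 78.1 CPM in WT and 33.1 CPM in the mice labelled KO, did not pass the test.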
